A study of Rattus norvegicus with 12 samples.

Results

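The complement genes described here are 6 of 10 components, receptors and inhibitors of the complement system chosen for description, read from 17423 genes in the injured rat spinal cord. They are C1qc, C1r, C1s, C2, Serping1 and C3ar1. The deposited tables name genes only by an RGD identifier. C1qc was matched by the study's supplementary gene list, and the other 5 by the order of neighbouring genes in the rat gene table, C1r and C3ar1 among them by hand. C1qa, C1qb, C3 and C5ar1 could not be matched to a row and were not analysed here.

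RNA was sequenced from 12 female rats, aged 16 to 18 weeks when injured, in 4 groups of 3 rats. The groups were Sprague-Dawley (SD, Hsd:SD) and athymic nude (AN, Hsd:RH-rnu/rnu) rats, each at 1 week (acute phase) and 8 weeks (chronic phase) after injury. All rats received a 200 kdyn contusion, were perfused with buffered saline, and gave a 1 mm cord segment through the injury site, so no uninjured cord stands beside these values. AN rats lack a functional thymus and hence most mature T cells, but keep innate immune cells, B cells and the complement genes themselves. SD rats are immunocompetent and of another genetic background, so thymus loss and strain cannot be told apart.

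Complement is a cascade of blood and tissue proteins that tags cells and debris. In the classical pathway, C1q binds antibody or damaged surfaces, the proteases C1r and C1s are activated in turn, and C1s cleaves C4 and C2. The products cleave C3, whose fragments mark targets for phagocytes and call cells through C3ar1, while Serping1, the C1 inhibitor, stops C1r and C1s. In the central nervous system microglia and macrophages are the main source of C1q, and C1q and C3 are also known for marking synapses for removal.

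The authors' tables give 1 FPKM value per group (fragments per kilobase of transcript, scaled to the fragments mapped). A value for each rat is not given in them, and neither is the depth behind a gene. Each value below is therefore the authors' value for 3 rats with no SD, no difference was tested here, and none is set against the spread between rats, since the authors' own test columns were not used. Strain differences are the log2 of AN over SD FPKM within a phase, with a gene called different where the groups differed by at least 2-fold. The acute and chronic tables were normalised separately, so levels are compared between phases only as a description. In bulk tissue, fewer cells of a type and less RNA per cell cannot be told apart.

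The strains differed in other classes of cells too. At 1 week all 4 neuron markers that could be matched were at least 2-fold lower in AN rats, with a median log2 ratio of -4.47, and so were all 4 oligodendrocyte markers (-1.36) and all 3 Schwann cell markers (-1.61). At 8 weeks the medians were -2.03 for neuron, -0.30 for oligodendrocyte and 0.27 for Schwann cell markers. T cell genes were low in every group. The summed FPKM of Cd3d, Cd3e and Cd3g was 4.58 in SD against 1.06 in AN rats at 1 week, and 4.49 against 3.25 at 8 weeks. Cd2, which NK cells also carry, was at 1.21 against 1.72 at 1 week and 1.88 against 3.81 at 8 weeks. Of 4 hepatocyte genes, Alb and Fgb were matched, and both stayed below 1 FPKM in all groups. Fgb was at 0.03 in SD against 0.49 in AN rats at 1 week, and 0.02 against 0.43 at 8 weeks.

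No complement member differed 2-fold between strains in either phase. Among all genes that reached 1 FPKM in a group, 2.07% were at least 2-fold higher and 11.4% at least 2-fold lower in AN rats at 1 week, and 2.27% and 6.33% at 8 weeks. The member log2 ratios ran from -0.26 to 0.81 at 1 week, with a median of 0.03 beside 0.00 for all 11326 genes. At 8 weeks they ran from 0.00 to 0.86, with a median of 0.34 beside 0.00 for all 11429 genes. A fold of 1.5 was exceeded by C1qc alone at 1 week, and by C1r and C1s at 8 weeks, each higher in AN rats. That fold was reached in the higher direction by 7.51% of genes at 1 week and 6.33% at 8 weeks, and in the lower direction by 18.0% and 10.6%.

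**Figure D1:**
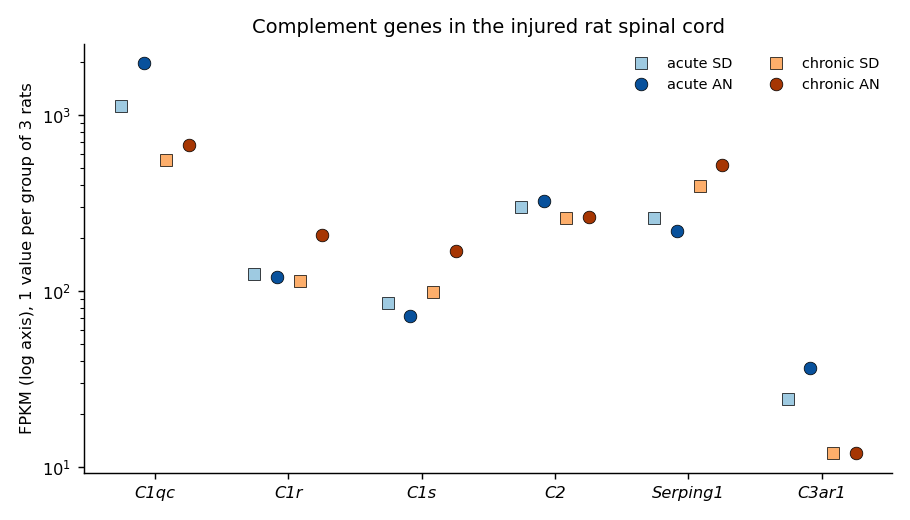
FPKM on a log axis of each matched complement gene in the 4 groups, 1 authors' value per group of 3 rats (squares, SD; circles, AN; blue, 1 week; orange, 8 weeks). C1qc and C3ar1 sit highest in acute AN rats, while C1r, C1s and Serping1 sit highest in chronic AN rats.

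C1qc encodes the C chain of C1q, the recognition molecule of the classical pathway. The gene lies on RN4 at chr5:155656103-155659430. Its level was 1116 FPKM in SD against 1956 in AN rats at 1 week, and 553 against 671 at 8 weeks. It was the most abundant member in every group, and it ranked 26 of the 17423 listed genes in acute AN rats. It was 1.75-fold higher in AN than in SD rats at 1 week (log2 0.81) and 1.21-fold higher at 8 weeks (log2 0.28). The acute ratio was above that of 96.3% of genes, and the chronic ratio above that of 83.1%. The log2 of the 8 week over the 1 week level was -1.01 in SD and -1.54 in AN rats.

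C1r and C1s encode the serine proteases that are bound to C1q, and their loci are neighbours on chromosome 4, with 6769 bases between them in RN4. C1r lies at chr4:160712581-160729362 and C1s at chr4:160736132-160748133. C1r was at 124 FPKM in SD against 120 in AN rats at 1 week, and 114 against 207 at 8 weeks. The chronic AN value stands apart and the other 3 lie close together. C1s followed with 85.3 FPKM in SD against 72.1 in AN rats at 1 week, and 99.2 against 168 at 8 weeks. At 1 week the log2 ratios were -0.05 for C1r and -0.24 for C1s, and at 8 weeks they were 0.86 and 0.76. The chronic ratios were above those of 97.0% of genes for C1r and 96.0% for C1s.

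The level of C1r over that of C1s ran between 1.15 and 1.67, at 1.46 in SD against 1.67 in AN rats at 1 week, and 1.15 against 1.23 at 8 weeks. The level of C1qc over that of C1s varied more. It was 13.1 in SD against 27.1 in AN rats at 1 week, and 5.57 against 4.00 at 8 weeks. The FPKM of C1qc over that of C1s was thus highest in acute AN rats and lowest in chronic AN rats. These are ratios of RNA, and the amounts of the proteins were not measured.

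C2, at chr20:4051145-4071909 on RN4, is the protease subunit cleaved by C1s. It varied least of the members. Its level was 299 FPKM in SD against 323 in AN rats at 1 week, and 259 against 262 at 8 weeks. The log2 ratios were 0.11 at 1 week and 0.02 at 8 weeks. With each column rescaled to the same sum both were smaller than 0.1 in size and the chronic one changed sign, so no direction is given for C2 at 8 weeks.

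Serping1 lies at chr3:67968807-67978102 on RN4. Its level was 261 FPKM in SD against 218 in AN rats at 1 week, and 393 against 517 at 8 weeks. It was lower in AN rats at 1 week (log2 -0.26) and higher at 8 weeks (log2 0.40). Set against the summed level of C1r and C1s, the proteases it inhibits, Serping1 was at 1.25 in SD against 1.13 in AN rats at 1 week, and 1.85 against 1.38 at 8 weeks. This ratio was lower in AN than in SD rats in both phases, also at 8 weeks where the Serping1 level itself was higher.

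C3ar1, at chr4:159326401-159333433 on RN4, encodes the receptor for the C3 fragment C3a, carried by myeloid cells. It was the least abundant member in every group. Its level was 24.5 FPKM in SD against 36.6 in AN rats at 1 week, and 12.0 against 12.0 at 8 weeks. The AN level was 1.497-fold the SD level at 1 week (log2 0.58), just short of the 1.5-fold limit, and the levels were alike at 8 weeks (log2 0.00). Like C1qc, it stood lower at 8 weeks than at 1 week, with a log2 of the later over the earlier level of -1.03 in SD and -1.61 in AN rats.

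The acute minus the chronic log2 ratio was 0.53 for C1qc, 0.58 for C3ar1 and 0.10 for C2, against -0.91 for C1r, -1.001 for C1s and -0.66 for Serping1. The median over all 11108 genes was -0.04, with quartiles of -0.32 and 0.17. A difference between phases at least as large as that of C1s was seen in 7.30% of genes, and as that of C1r in 9.003%. For C1qc and C3ar1 the shares were 21.5% and 18.8%. C1s and Serping1 had opposite signs in the phases, with at least 0.2 on the log2 scale in each. Such opposite differences were seen in 4.86% of genes, and the direction of C1s and Serping1, lower at 1 week and higher at 8 weeks in AN rats, in 3.17%.

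**Figure D2:**
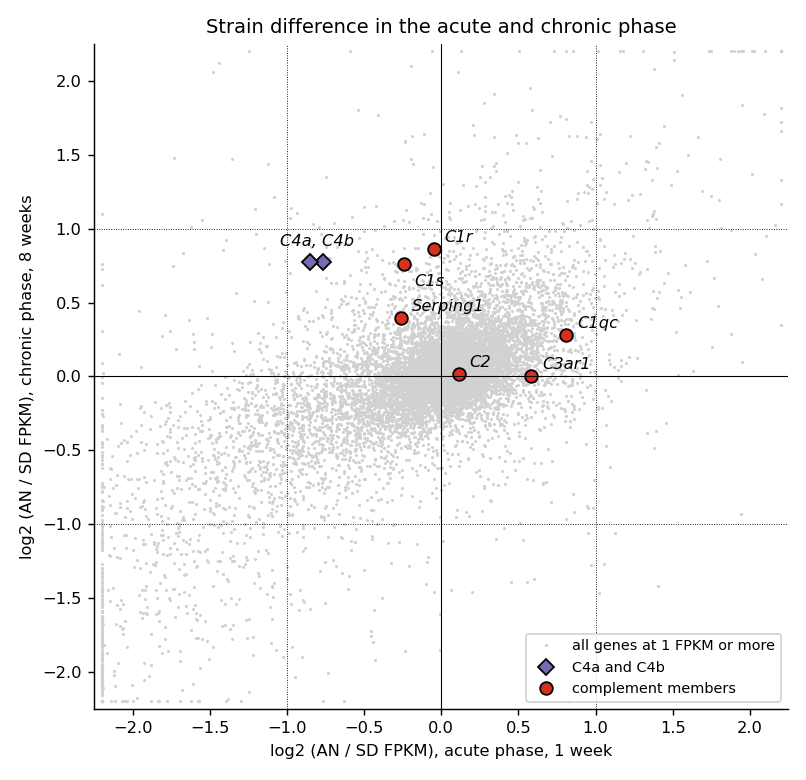
Log2 of AN over SD FPKM at 1 week (horizontal axis) and 8 weeks (vertical axis) for all genes at 1 FPKM or more in both phases (grey), the 6 matched members (red) and C4a and C4b (purple); dotted lines mark 2-fold, and genes beyond 2.2 are drawn at the edge. C1r and C1s sit near 0.8 on the vertical axis and at or left of 0 on the horizontal axis, while C1qc and C3ar1 sit to the right.

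From 1 to 8 weeks the members also moved apart within a strain. In AN rats the log2 of the 8 week over the 1 week level was 0.78 for C1r, 1.22 for C1s and 1.25 for Serping1, and in SD rats -0.13, 0.22 and 0.59. For C2 it was -0.30 in AN and -0.21 in SD rats. The order of members by level was the same at 1 week in both strains from C1qc through C2, Serping1, C1r and C1s to C3ar1. At 8 weeks Serping1 stood above C2 in both strains and the rest of the order was the same. Whether neighbours in this order differ beyond the spread between rats is not known.

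C4, the other substrate of C1s, was read from a pair of near-identical genes. C4a was at 126 FPKM in SD against 73.9 in AN rats at 1 week, and 144 against 247 at 8 weeks. C4b was at 89.7, 49.8, 121 and 207 FPKM in the same order of groups. Reads may have been split between the copies by the authors' counting, and C4a shares its listed locus with another identifier. Summed, the copies had a log2 ratio of -0.80 at 1 week and 0.78 at 8 weeks. C4 was thus lower in AN rats in the acute phase and higher in the chronic phase, and its 8 week ratio lay between those of C1s and C1r.

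RefSeq promoter sequences were at hand for C1r, C4a and C4b, which were higher in chronic AN rats by a similar factor, and for C3ar1, which was not. Of the 6 members, C1r and C3ar1 had an entry, and C1qc, C1s, C2 and Serping1 did not. The 250 bases before the start are shown 5' to 3' on the gene's strand, from GRCr8 at chr4:159098763-159099012 (plus strand) for C1r, chr20:4010107-4010356 (plus) for C4a, chr20:4201729-4201978 (plus) for C4b and chr4:157756531-157756780 (minus) for C3ar1. Capitals mark a match to GAGGAA or its reverse complement, a core bound by ETS factors of myeloid cells.
C1r: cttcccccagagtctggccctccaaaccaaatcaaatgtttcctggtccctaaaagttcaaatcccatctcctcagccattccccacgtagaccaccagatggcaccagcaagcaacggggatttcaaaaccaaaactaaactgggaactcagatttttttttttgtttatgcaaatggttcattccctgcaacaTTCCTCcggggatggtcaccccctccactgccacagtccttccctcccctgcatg
C4a: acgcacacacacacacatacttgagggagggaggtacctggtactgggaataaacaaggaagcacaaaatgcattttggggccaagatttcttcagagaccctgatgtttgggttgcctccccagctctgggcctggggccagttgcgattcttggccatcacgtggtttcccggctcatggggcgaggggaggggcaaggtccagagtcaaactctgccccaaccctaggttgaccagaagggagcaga
C4b: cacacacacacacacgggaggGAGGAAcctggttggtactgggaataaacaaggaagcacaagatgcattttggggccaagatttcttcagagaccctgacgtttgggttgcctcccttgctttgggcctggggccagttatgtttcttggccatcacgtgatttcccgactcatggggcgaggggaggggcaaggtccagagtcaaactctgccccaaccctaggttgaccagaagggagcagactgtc
C3ar1: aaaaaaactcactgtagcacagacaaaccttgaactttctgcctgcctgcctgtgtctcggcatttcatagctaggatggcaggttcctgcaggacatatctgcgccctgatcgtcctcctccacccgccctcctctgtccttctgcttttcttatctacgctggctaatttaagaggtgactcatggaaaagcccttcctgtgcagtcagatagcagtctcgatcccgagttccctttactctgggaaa
GAGGAA was found 1 time before C1r, from position -55 relative to the start, and 1 time before C4b, from position -229, and 23.3% of all 33469 promoters hold it. TTCNNNGAA (a STAT type site, in 7.67% of promoters), GAAANNGAA (an interferon response type, 8.12%), CCAAT (34.0%) and TATAAA (12.9%) were searched on both strands as well. None of these 4 was found before any of the genes shown. The C4a and C4b promoters had 226 of 245 aligned bases in common, and the capitals in C4b fall on a base run that C4a does not hold.

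Of 38 other complement genes in lists of the pathway, 26 were matched and 20 of these reached 1 FPKM in a group. At 1 week 2 of the 20 were at least 2-fold higher and 3 at least 2-fold lower in AN rats, with a median log2 ratio of 0.07. The shares over all genes were 2.07% and 11.4%. At 8 weeks 3 were 2-fold higher and 0 were 2-fold lower, with a median of 0.42, where 2.27% and 6.33% of all genes were. At 1.5-fold, 4 were higher and 6 lower at 1 week, against 7 higher and 1 lower at 8 weeks. Over all genes these shares were 7.51% and 18.0% at 1 week, and 6.33% and 10.6% at 8 weeks. The all-gene shares used genes at 1 FPKM in a group of the same phase, and the 20 needed it in either phase. C4bpb counted as lower at 1 week at both folds. It was then at 0.69 FPKM in SD against 0.30 in AN rats, below the limit of those shares. The lists were chosen with results of these data known.

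**Figure D3:**
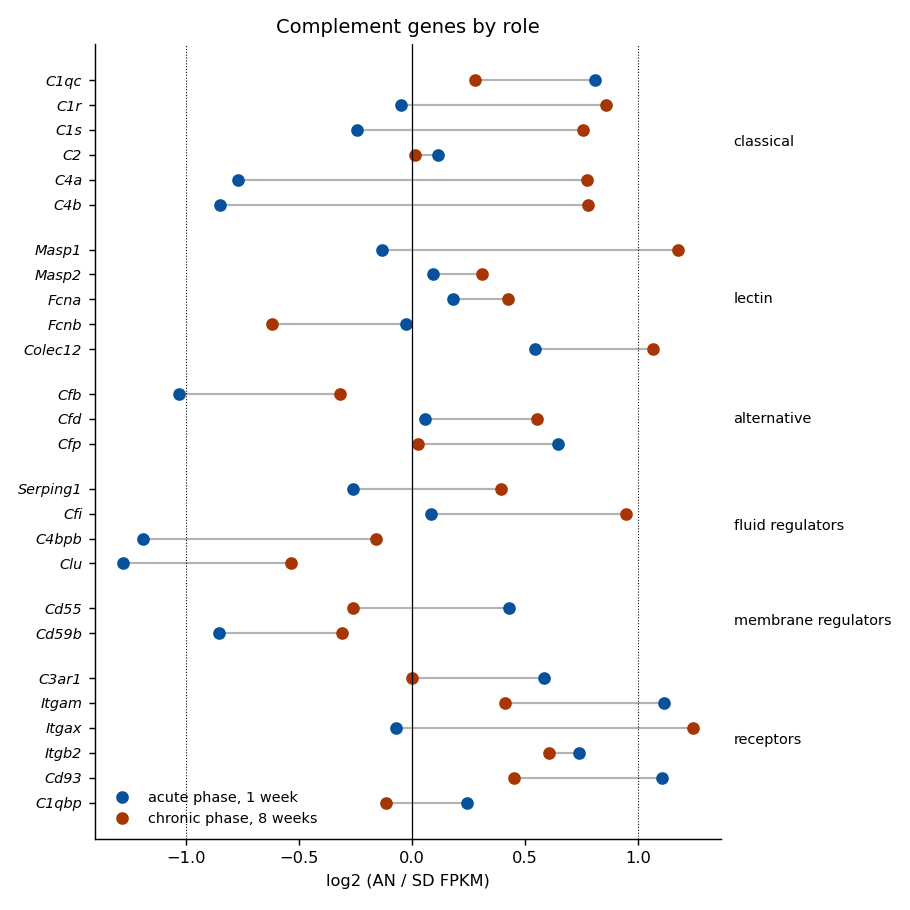
Log2 of AN over SD FPKM of the 26 complement genes with values in both phases, grouped by role (blue, 1 week; brown, 8 weeks; dotted lines, 2-fold). In the classical group C1r, C1s, C4a and C4b have their 8 week point well to the right of their 1 week point, and C1qc has the reverse.

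In the lectin pathway, which starts from sugar-binding proteins and meets the classical pathway at C4, 5 of the 7 matched genes reached 1 FPKM. Masp1, a protease related to C1r and C1s, was at 9.02 FPKM in SD against 8.24 in AN rats at 1 week, and 8.43 against 19.1 at 8 weeks. Its log2 ratio was -0.13 at 1 week and 1.18 at 8 weeks. Masp2, the protease that cleaves C4 in this pathway, had ratios of 0.09 and 0.31. Colec12, a scavenger receptor with a collectin domain, had ratios of 0.54 and 1.06. The ficolin Fcnb, a product of myeloid cells, was at 34.3 FPKM in acute SD and 33.7 in acute AN rats, and at 3.19 and 2.07 at 8 weeks. Fcna, the other ficolin, had ratios of 0.18 and 0.43.

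In the alternative pathway, Cfb, the factor that pairs with C3b as C2 pairs with C4b, was lower in AN rats at 1 week, at 22.0 FPKM in SD and 10.7 in AN rats (log2 -1.03). At 8 weeks it was at 41.7 and 33.4 FPKM (log2 -0.32). C2, its neighbour on chromosome 20, had an acute ratio of 0.11. Cfp, which stabilises the convertase, had ratios of 0.65 and 0.03, close to those of C3ar1. Cfd, the protease that cleaves factor B, had ratios of 0.06 and 0.56. C5, C8a and C8b of the terminal pathway stayed under 0.1 FPKM in every group, with C8a and C8b listed at 0 throughout.

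Among the fluid regulators, Clu, which blocks the terminal complex and is made by astrocytes, had the highest level of any matched complement gene except in acute AN rats, where C1qc stood above it. Clu was at 1268 FPKM in SD against 524 in AN rats at 1 week, and 4349 against 3007 at 8 weeks. It was lower in AN rats in both phases (log2 -1.27 and -0.53), unlike Serping1. Of the 4 matched astrocyte markers, S100b had log2 ratios of -1.77 and -0.50, Slc1a2 of -1.69 and -0.27, and Gja1 of 0.12 and -0.15. Gfap was at 3957 against 1424 FPKM at 1 week, and at 8 weeks it was listed at 0 in SD rats beside 5824 FPKM in AN rats. A listed 0 can be a failed estimate, and S100b was at 4461 FPKM in the same chronic SD group. No chronic ratio was formed for Gfap. The part of astrocyte content in the Clu difference was not tested. Cfi, which cleaves C3b and C4b, was at 1.54 and 1.63 FPKM at 1 week and at 0.73 and 1.40 at 8 weeks (log2 0.08 and 0.95). C4bpb, a chain of the C4b binding protein, was at 0.69 and 0.30 FPKM at 1 week and at 1.19 and 1.06 at 8 weeks (log2 -1.19 and -0.16).

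The membrane regulators Cd59b and Cd55 shield host cells. Cd59b was at 198 FPKM in SD against 110 in AN rats at 1 week, and 359 against 289 at 8 weeks, with log2 ratios of -0.85 and -0.31. Cd55, which speeds the decay of convertases, had ratios of 0.43 and -0.26 at levels between 5.55 and 11.5 FPKM.

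Beside C3ar1, 5 receptors or binding proteins were measured. Itgam and Itgb2 encode the chains of complement receptor type 3, and Itgax pairs with Itgb2 as type 4. Itgam had log2 ratios of 1.12 and 0.41, and Itgb2 of 0.74 and 0.60. Itgax was at 16.6 and 15.8 FPKM in acute SD and AN rats and at 4.65 and 10.99 at 8 weeks (log2 -0.07 and 1.24). Cd93, once described as a C1q receptor, was at 16.0 and 34.4 FPKM at 1 week (log2 1.10) and 5.50 and 7.52 at 8 weeks (log2 0.45). C1qbp, a mostly mitochondrial protein that binds C1q, had ratios of 0.24 and -0.11. With columns rescaled to the same sum, the acute ratios of all genes shift by -0.10 and the chronic ones by -0.07, so ratios nearer to 0 than this carry no direction.

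Macrophage and microglia markers were set beside the members, since these cells are the main known source of C1q. Of 14 matched markers, 13 had a log2 ratio above 0 at 1 week and 10 at 8 weeks, with medians of 0.70 and 0.07. After rescaling columns to the same sum, 13 and 7 were above 0, so some of the 10 carry no direction. Of the 14, 4 and 2 were at least 2-fold higher in AN rats, where 2.07% and 2.27% of all genes were. The summed FPKM of the 12 markers other than Itgam and Itgb2 was 3192 in SD against 4665 in AN rats at 1 week, and 2019 against 2279 at 8 weeks. The pan-macrophage gene Cd68 was at 1115, 1757, 606 and 841 FPKM. Of the genes used to mark microglia, Cx3cr1 had log2 ratios of 0.61 and -0.24, P2ry12 of 0.10 and 0.10, and Tmem119 of -0.12 and -0.36. The markers past 2-fold at 8 weeks were Cd163, with ratios of 1.95 and 1.84, and Mrc1, with 0.95 and 1.24. Cd14 had ratios of 1.17 and -0.03, and Fcgr1a of 1.00 and 0.00.

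Divided by the summed markers, the acute strain ratios of C1qc and C3ar1 were smaller. C1qc was at 34.98% of the marker sum in SD against 41.9% in AN rats at 1 week, and 27.4% against 29.5% at 8 weeks, and its log2 ratio went from 0.81 to 0.26 at 1 week. C3ar1 was at 0.77%, 0.78%, 0.59% and 0.52% of the sum, and its log2 ratio went from 0.58 to 0.03. C1r and C1s were then lower in acute AN rats, with log2 ratios of -0.59 and -0.79, and higher in chronic AN rats, with 0.69 and 0.58. Serping1 had ratios of -0.81 and 0.22 on this scale, and C2 had -0.43 and -0.16. With any 1 marker left out, the chronic ratio of C1r per marker sum stayed between 0.60 and 0.83, and that of C1s between 0.50 and 0.73. The part of macrophages and microglia in the strain differences was not tested.

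**Figure D4:**
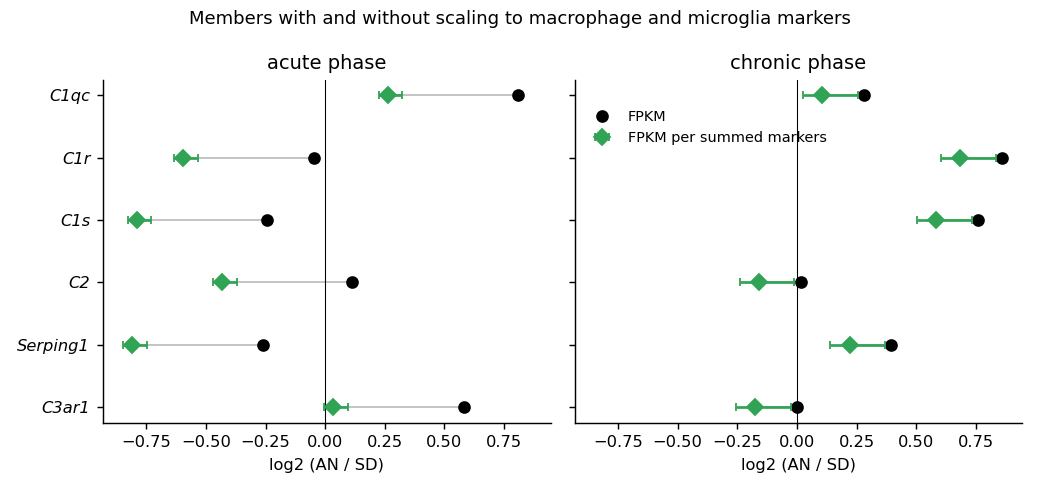
Log2 of AN over SD of each member as FPKM (black) and as FPKM divided by the summed FPKM of 12 macrophage and microglia markers (green; bars, the lowest and highest value with 1 marker left out) at 1 week and 8 weeks. The acute C3ar1 ratio sits at 0.03 on the marker scale, and the chronic C1r and C1s ratios stay above 0.50.

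Fibroblast and vessel genes were set beside the members too. The 6 fibroblast markers had a median log2 ratio of 0.61 at 1 week and 0.58 at 8 weeks. The median of the 3 endothelium and pericyte markers was 0.18 at 1 week and 0.72 at 8 weeks. Dcn, a matrix gene of fibroblasts, was at 526 FPKM in SD against 536 in AN rats at 1 week, and 418 against 586 at 8 weeks, with log2 ratios of 0.03, too near to 0 for a direction, and 0.49, while Col1a1 had 0.71 and 0.76. Of the endothelial genes, Cdh5 had 0.18 and 0.79, and Pecam1 had -0.17 and 0.21. The part of these cells in the chronic C1r, C1s and C4 differences was not tested.

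**Figure D5:**
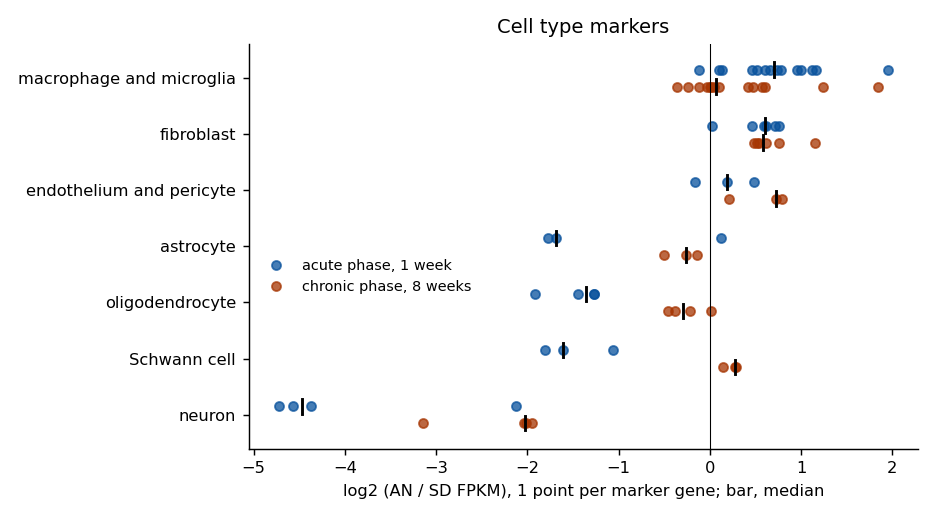
Log2 of AN over SD FPKM of marker genes by cell type (points, 1 gene each; black bar, median; blue, 1 week; brown, 8 weeks). Macrophage and fibroblast markers lie mostly right of 0, and the 4 neuron markers lie left of -1.9 in both phases.

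Proteins outside the cascade that inhibit complement on neurons, or share the C1q fold, were read as well. Sez6l2, one such neuronal inhibitor, was at 12.7 FPKM in SD against 1.45 in AN rats at 1 week, and 16.8 against 3.05 at 8 weeks. Csmd1 and Csmd3, large membrane inhibitors of neurons, lay near or below 1 FPKM. Csmd1 was at 1.15 FPKM in SD against 0.39 in AN rats at 1 week, and 1.19 against 0.52 at 8 weeks (log2 -1.58 and -1.18). Csmd3 was at 0.68 against 0.16 at 1 week, and 1.04 against 0.33 at 8 weeks (log2 -2.06 and -1.66). The neuron marker Snap25 was lower too, with ratios of -4.72 and -3.14, and the part of neuron content was not tested. Srpx2, a secreted C1q inhibitor, went the other way, at 4.49 and 10.7 FPKM at 1 week and 0.94 and 1.82 at 8 weeks (log2 1.24 and 0.95). C1ql1, a synaptic relative of C1q, was at 79.5, 50.4, 133 and 147 FPKM, with log2 ratios of -0.66 and 0.15. C1ql3, of the same family, had ratios of -0.59 and -0.27.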

How the data were processed

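PolyA RNA of 12 rats was sequenced. Per the labels and the study's methods, the authors trimmed adapters with cutadapt, mapped reads to RN4 with TopHat 1.5.0, assembled transcripts with Cufflinks 0.0.6 using quartile normalisation, and compared strains with Cuffdiff for each time point. The FPKM values the authors deposited are 1 value per group of 3 rats, in 2 tables of 17423 genes that were normalised separately. The tables' other columns hold the authors' own fold changes, test statistics, p-values and q-values and were not used. A gene's depth is not given, so no interval, SD or test was computed. A 0 can be a failed estimate and is reported as listed at 0.

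Log2 ratios of AN over SD FPKM were computed with no pseudocount in Python 3.11.15 with pandas 2.3.3 and numpy 2.4.6. All-gene shares used genes that reached 1 FPKM in a group of the phase, and the counting was tested on simulated data. Identifiers were named from the supplementary gene list, RGD synonyms (4463 names) and gene order in the GRCr8 table (7061 by rule and 10 read by hand), 66.2% in all. To check gene order, 2250 names were held out, of which 1604 got a name, right in 1549 cases (96.6%). This accuracy was known when the settings and hand-read names were chosen. The hand-read names, C1r and C3ar1 among them, were not part of this check. More than 1 identifier has the same symbol for 20 symbols. Coordinates are those of the tables (RN4), promoters those of RefSeq on GRCr8. Genes named in the text are the members, the listed complement genes at 1 FPKM or more, the matched terminal genes (added after their values were seen) and markers from fixed lists. A gene of the complement lists was left out of all counts and is not reported here. Marker genes given singly were picked after their values were seen. The members and lists were chosen with earlier results of these data known. Alternatives were rescaling columns to the same sum, centring on the median gene, a pseudocount of 1, no filter on low values, a 1.5-fold limit and other marker sums.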

Additional observations from a re-analysis of the deposited data

Results flagged for a closer look

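For 5 of 32 listed genes at 1 FPKM or more, made up of 26 complement genes, 4 neural inhibitors and 2 relatives of C1q, the strain difference had opposite signs in the phases with at least 0.2 on the log2 scale in each. The acute minus chronic log2 of AN over SD was -1.001 for C1s, -0.66 for Serping1, -1.54 for C4a, -1.62 for C4b and 0.69 for Cd55. The first 4 were lower in AN rats at 1 week and higher at 8 weeks, and Cd55 had the reverse. Over all 11108 genes, 4.86% had such opposite signs, and 3.17% were lower at 1 week and higher at 8 weeks. Those genes reached 1 FPKM in a group of each phase, and the 32 in a group of either phase. The difference between phases was not tested, since no spread between rats was used here. C4a and C4b may share reads and are not independent of each other.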

How the results depend on the processing

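Values for single rats were not analysed here, so no replicate could be left out. No paired analysis was possible because each group enters as 1 value. With no spread between rats, a log2 value was held to be the same where it moved by less than 0.1. Rescaling columns to the same sum and centring on the median gene shift every gene by 1 constant, of -0.10 at 1 week and -0.07 at 8 weeks for the strain ratios after rescaling, so they say nothing of single members beyond those near 0, and the chronic C2 ratio went from 0.02 to -0.05. A pseudocount of 1 moved no member by 0.1. The acute median over members, at 0.03, was -0.06 after rescaling. Members past the limit went from 0 to 1 at 1 week and from 0 to 2 at 8 weeks with 1.5-fold in place of 2-fold, and all genes past it in either direction from 13.5% to 25.5% and from 8.60% to 17%. With no filter on low values the 2-fold shares were 19.1% at 1 week and 13.5% at 8 weeks. Adding Itgam and Itgb2 to the marker sum left all 12 ratios the same. Leaving out Cd68 moved the 6 chronic ratios per marker sum by over 0.1, to 0.25 for C1qc, 0.83 for C1r, 0.73 for C1s, -0.01 for C2, 0.37 for Serping1 and -0.03 for C3ar1.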
